A study of Homo sapiens with 12 samples.

Results

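The genes described here are 9 nuclear receptor coregulators and acetylation enzymes, NCOA1, NCOA2, NCOA3, NCOR1, EP300, CREBBP, MED1, NRIP1 and SIRT1, of 19974 protein-coding genes on chromosomes 1 to 22 and X. They were taken by name, and their peaks are those with a summit within 50 kb of the gene's span in hg38. All 9 were found in the RefSeq gene table. The data are chromatin immunoprecipitation sequencing (ChIP-seq) peak lists for PPARγ from MCF10A-NeuT cells, a human breast epithelial line transformed with NeuT, an activated rat Erbb2. Both groups used carried a retroviral pMSCV-IRES-GFP insert, stably expressing either wild-type PPARγ or the K154/155Q mutant (KQ, a pair of lysines changed to glutamine), and grew in medium with serum. The design text calls the mutant acetylation deficient, and a K77R line that the labels also mention has no library here. Each group had 2 ChIP libraries with a peak list each and 1 list from the pooled libraries. ChIP from vector-control cells, and all inputs, were not used here. The labels name a PPARγ antibody in one place and a Flag antibody in another, so receptor from the cells' own gene may be in the pull-down. They do not say whether libraries of a group came from separate cultures.

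A nuclear receptor on DNA acts through proteins that it recruits. The p160 coactivators NCOA1, NCOA2 and NCOA3 bind the ligand-bound receptor and bring in the acetyltransferases EP300 and CREBBP, and MED1 links the receptor to the Mediator complex and RNA polymerase. NCOR1 scaffolds the deacetylase HDAC3 on receptors without agonist, NRIP1 (RIP140) is a corepressor that binds liganded receptors, and SIRT1 is an NAD-dependent deacetylase known to act on PPARγ in fat cells. The question asked of the lists was whether PPARγ peaks lie near the genes of its own partners, and whether this differs with the KQ mutant.

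MED1 was the 1 member with a peak in all 4 ChIP libraries, on the CDK12 promoter 10.1 kb upstream of it. The nearest gene to that peak was CDK12. The share of all genes with a peak in all 4 was not counted, so the count does not set the members apart. A reproducible KQ peak, found in both KQ libraries, lay within 50 kb of 2.68% of all genes. A pooled peak lay on the promoter of 2 members, at neither of them found in both libraries of a group. Promoter windows from RefSeq (GRCh38.p14, 250 bases before to 50 after a start site) were at hand for 8 members, NCOA2 being the exception. A pooled wild-type peak overlapped the promoter of MED1 and of EP300, 2 of 8 genes (25.0%), beside 6.84% of the 15812 protein-coding genes with a window. A pooled KQ peak overlapped that of MED1, 1 of 8 (12.5%), beside 0.778%. The strongest peak of the MED1 window lay on the promoter of the neighbouring CDK12, a kinase of the RNA polymerase tail. The 250 bases before these 3 start sites are shown because they are the member sites whose sequence was at hand, each 5′ to 3′ on the strand of the gene. Capitals mark TCTCGCGA or its reverse complement TCGCGAGA, the CGCG element of housekeeping promoters.
MED1, chr17:39451264-39451513, minus strand: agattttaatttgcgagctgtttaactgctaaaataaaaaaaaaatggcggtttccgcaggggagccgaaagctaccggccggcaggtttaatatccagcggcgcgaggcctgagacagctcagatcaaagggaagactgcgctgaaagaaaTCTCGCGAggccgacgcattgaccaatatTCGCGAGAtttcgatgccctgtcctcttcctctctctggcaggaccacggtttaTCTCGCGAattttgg
CDK12, chr17:39461236-39461485, plus strand: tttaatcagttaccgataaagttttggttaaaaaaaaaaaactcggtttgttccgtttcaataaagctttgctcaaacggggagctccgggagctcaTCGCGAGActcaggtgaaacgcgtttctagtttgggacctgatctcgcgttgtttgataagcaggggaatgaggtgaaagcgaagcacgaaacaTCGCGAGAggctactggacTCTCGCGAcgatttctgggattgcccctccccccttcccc
EP300, chr22:41092342-41092591, plus strand: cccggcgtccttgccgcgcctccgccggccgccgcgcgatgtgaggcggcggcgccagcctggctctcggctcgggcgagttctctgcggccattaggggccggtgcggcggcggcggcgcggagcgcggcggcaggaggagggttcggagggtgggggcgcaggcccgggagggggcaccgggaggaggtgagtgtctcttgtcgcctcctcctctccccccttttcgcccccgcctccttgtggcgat

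The MED1 and CDK12 promoters each held 3 copies of the CGCG element and the EP300 promoter held 0. In MED1 the copies began 98, 69 and 15 bases upstream of the start site, and the pooled summits lay 70 (wild type) and 35 (KQ) bases upstream of it. In CDK12 they began 153, 59 and 40 bases upstream, with summits 99 (wild type) and 152 (KQ) bases upstream. Of the 14 promoter windows of the 8 members, MED1's was the 1 window with the element, beside 1.15% of all 34961 windows (402). The PPAR half-site AGGTCA, or TGACCT on the other strand, occurred in 0 of the 14 windows and in 13.8% of all windows. The receptor's full site is the direct repeat AGGTCANAGGTCA, 12 fixed letters around a free one. The closest stretch on either strand matched 9 of the 12 letters in MED1, 8 in CDK12 and 7 in EP300. At least 9 letters were matched in 20.8% of all windows, at least 8 in 75.0% and at least 7 in 99.8%. These matches are letters in a window, and binding to them was not measured. The element was chosen after these sequences were seen. Its presence in the MED1 window was therefore fixed in advance, and the 1.15% beside it is no test.

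The same element was frequent under KQ peaks on promoters across the genome. It occurred in 73 of the 176 windows overlapped by a pooled KQ peak (41.5%, 95% exact binomial interval 34.1 to 49.1), MED1 and CDK12 among them. It was in 29 of 78 windows of KQ library 1 (37.2%) and in 28 of 58 of library 2 (48.3%). With wild type it was in 166 of 1586 pooled windows (10.5%, exact interval 9.0 to 12.1), in 11.2% for library 1 and in 8.07% for library 2. Among wild-type windows it was in 57 of the 129 that also had a pooled KQ peak (44.2%, exact interval 35.5 to 53.2) and in 109 of the 1457 that had none (7.48%, exact interval 6.18 to 8.95). The half-site had the other order, 5.68% of pooled KQ windows (exact interval 2.76 to 10.2) and 14.6% of pooled wild-type windows (12.9 to 16.5), beside 13.8% of all windows. By library it was in 18.0% of the windows of wild-type library 1 (exact interval 15.6 to 20.6) and 14.4% of library 2 (12.3 to 16.7). In windows overlapped by peaks of both wild-type libraries it was in 21.6% (17.5 to 26.2), and the element was in 11.0%. For KQ the half-site was in 8.97% of library 1 (3.68 to 17.6) and 6.90% of library 2 (1.91 to 16.7). In the 20 windows overlapped by peaks of both KQ libraries, the half-site was in 0 and the element in 11 (55.0%). The pooled lists hold 2846 (KQ) and 25164 (wild type) peaks, and peaks of like strength were not compared. Windows of alternative start sites of 1 gene overlap, so these intervals cover counting error only, and no test was made.

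**Figure D1:**
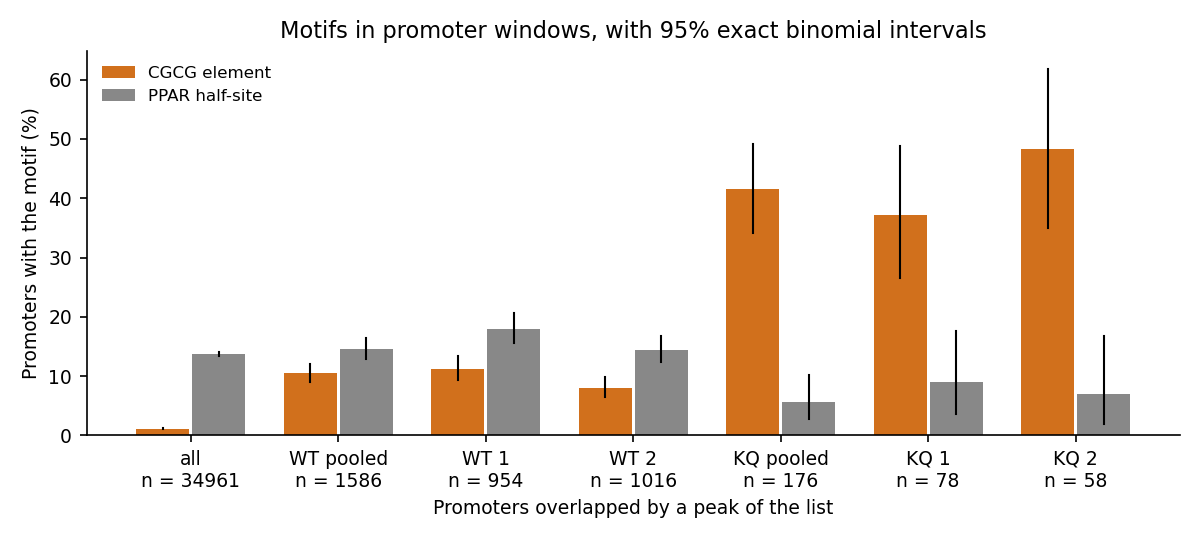
Percent of promoter windows that hold the CGCG element (orange) or the PPAR half-site (grey), for all windows and for those overlapped by a peak of each list, with 95% exact binomial intervals (lines) and the number of windows under each label. The element is in 41.5% of pooled KQ windows and 1.15% of all windows.

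Near the 9 genes wild-type PPARγ gave 21 pooled peaks and KQ gave 3. Every member had at least 1 pooled wild-type peak, 9 of 9 beside 67.1% of all protein-coding genes. A pooled peak is called reproducible if it shared at least 1 bp with a peak of library 1 and with a peak of library 2. With wild type 3 members had one (33.3%), NCOR1, MED1 and NRIP1, beside 37.7% of all genes, so the members' share was near the background. With KQ 2 members had a pooled peak (22.2%, beside 16.4% of all genes) and 1, MED1, had a reproducible one (11.1%, beside 2.68%). The members are long genes, with a median span of 155 kb against 24.2 kb for all genes, so their windows are wide. Per Mb of window there were 9.15 pooled wild-type peaks near the members and 10.3 near all genes, and for KQ 1.31 and 1.13. With peaks of a single library enough, the wild-type count was 6 without library 1, beside 48.6% of all genes, and 7 without library 2, beside 54.8%. It was 0 in a 5 kb window, beside 17.5% of all genes. With each peak given to its nearest gene it was 2, beside 23.4%: NCOR1 and MED1 lost the call, NRIP1 kept it and NCOA3 gained one.

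**Figure D2:**
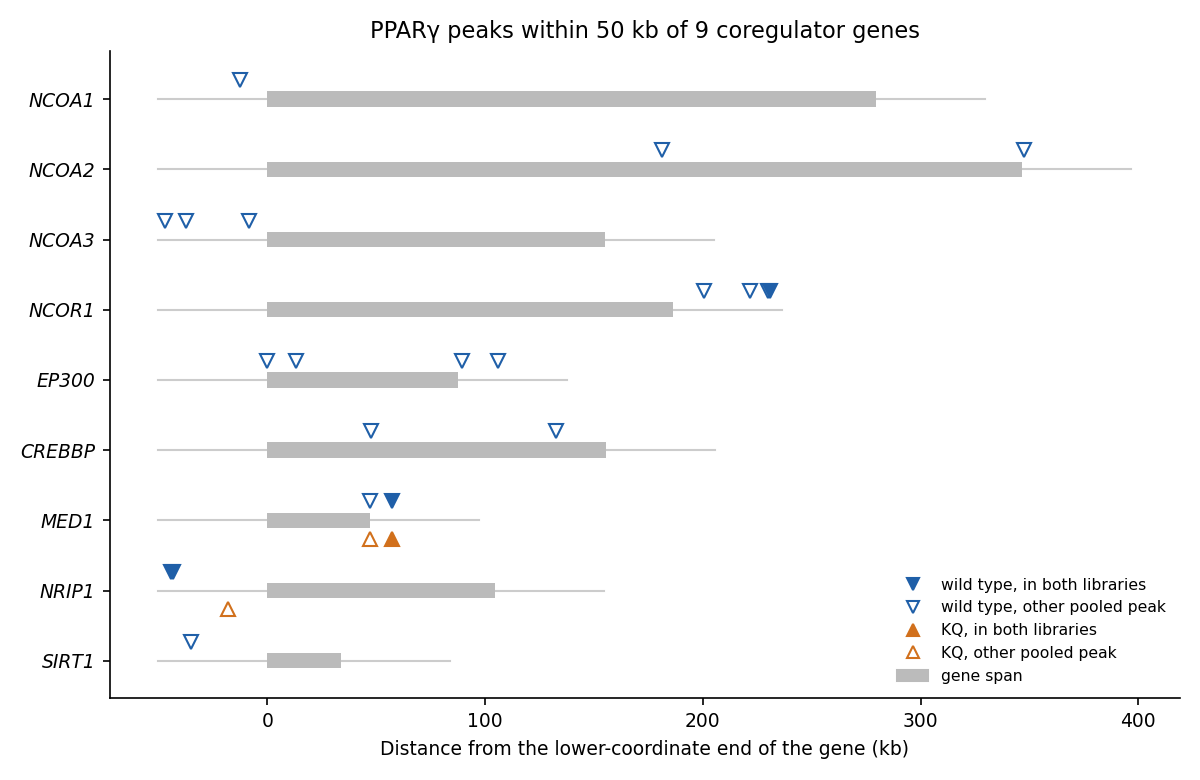
Position of pooled peak summits along the 9 genes, in kb from the lower-coordinate end of each gene (grey bar: gene span; thin line: the 50 kb on either side). Blue marks above the line are wild type and orange marks below are KQ, filled where the peak was in both libraries; filled marks stand at NCOR1, MED1 and NRIP1 for wild type and at MED1 for KQ, and close marks overlap.

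The library lists gave the same order. Wild-type library 1 had 14 peaks in the member windows and library 2 had 13, and KQ library 1 had 2 and library 2 had 1. The means were 13.5 ± 0.707 (SD, n = 2) and 1.5 ± 0.707 (SD, n = 2). The groups did not overlap, and the ratio was 9.0 beside 15.7 over all peaks of the libraries (18143 and 17859 against 1263 and 1035). The exact permutation test over the 4 libraries, two-sided, gave p = 0.33, the smallest value that 2 against 2 libraries allow. The lists carry no read totals, so the depth of the libraries is unknown and its part in the number of peaks was not tested.

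Of the 21 pooled wild-type peaks near these genes, 4 were reproducible (19.0%), beside 31.9% of all 25164 pooled wild-type peaks. With 21 peaks this share does not set the members apart, and no test of it was made. A further 8 of the 21 peaks were in library 1 alone, 6 in library 2 alone and 3 in neither. Their fold enrichment, the authors' ratio over the caller's background, ran from 3.03 to 10.8 with a median of 5.38, and the median of the whole list was 6.14. Summit tags, meaning the sequenced fragments stacked at the summit, were recovered from the deposited fold and p. They ran from 6 to 61 with a median of 17, against 18 in the whole list. Summits lay inside the member gene for 4 of the 21 and more than 10 kb outside it for 12. The outermost peaks inside the window were those of NCOA3 at 47.1 kb (fold 6.20), NCOR1 at 44.5 kb (6.86) and NRIP1 at 44.3 kb (8.69), and no pooled summit lay between 50 and 60 kb from a member.

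**Figure D3:**
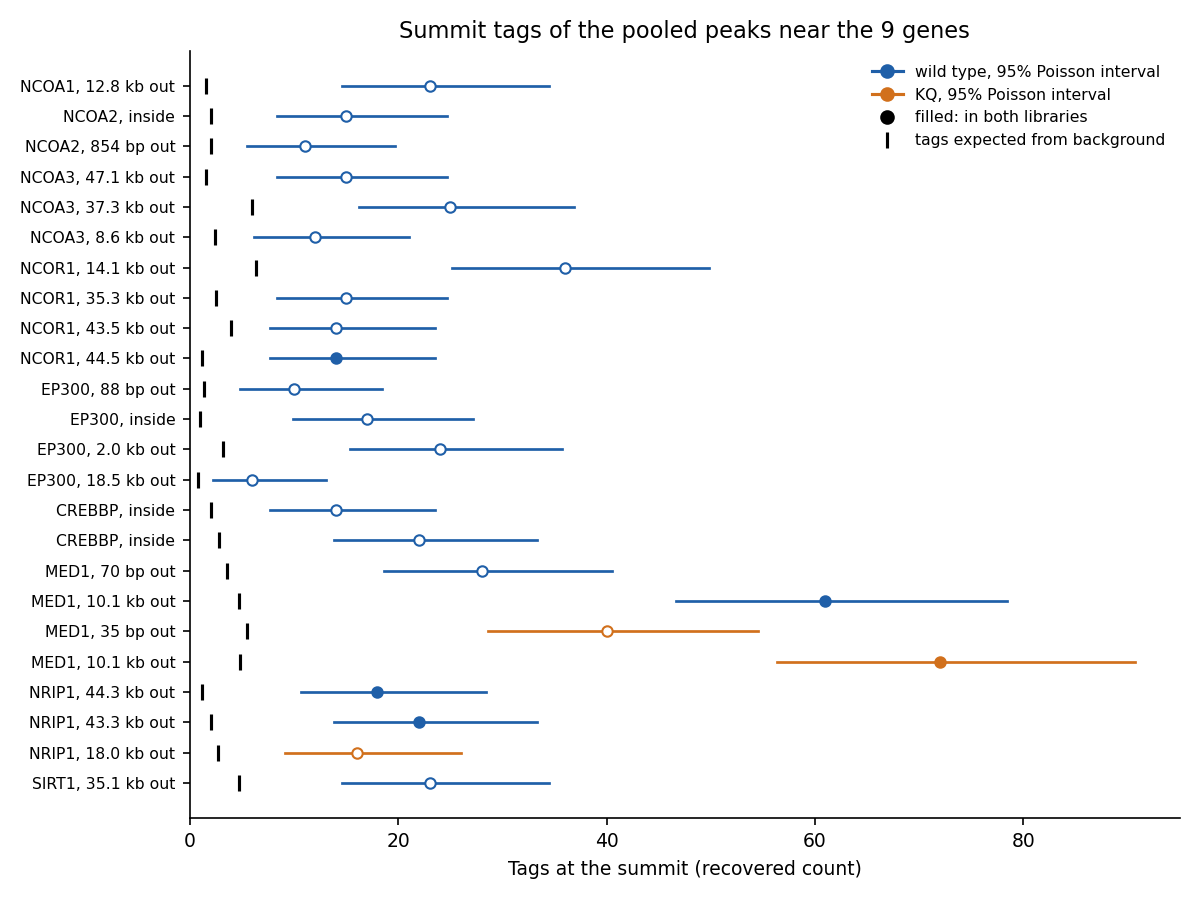
Recovered tags at the summit of each pooled peak near the 9 genes (points, with 95% Poisson intervals) and the tags expected from the caller's background (black ticks); blue is wild type, orange is KQ, filled points were in both libraries. The 2 peaks with the most tags, 61 for wild type and 72 for KQ, are the CDK12 promoter site in the MED1 window.

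The p160 coactivator genes had pooled wild-type peaks that were each found in 1 library at most, and 0 KQ peaks in any list. NCOA1 (chromosome 2, 24491254 to 24770702) had 1 pooled wild-type peak, 12.8 kb upstream of the gene (24478351 to 24478610), with 23 summit tags against 1.58 expected and a fold of 9.30. It was in library 1 (19 tags, fold 9.22) and not in library 2. With −log10 q of 15.9, as in the authors' deposited list, it had 21.8% of the pooled list above it, the second highest place among the members after MED1's. NCOA2 (chromosome 8, 70109782 to 70456446) had a peak inside the gene (fold 5.38, 15 tags) and one 854 bp beyond its higher-coordinate end (fold 4.03, 11 tags). Both were in library 2 alone, with 8 and 6 tags. NCOA3 (chromosome 20, 47501887 to 47656872), amplified in some breast cancers and also known as AIB1, had 3 upstream, at 47.1, 37.3 and 8.6 kb, with folds of 6.20, 3.75 and 3.86. The first pair was in library 1 alone and the third in neither library. So the 3 genes had 6 pooled wild-type peaks, of which 0 were reproducible, beside 31.9% of all pooled wild-type peaks. A pooled KQ peak was near 16.4% of all genes. With 6 peaks and 3 genes, these counts of 0 do not set the p160 genes apart.

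The acetyltransferase genes also had wild-type peaks alone. EP300 (chromosome 22, 41092592 to 41180077) had 4 pooled wild-type peaks. The one on its promoter (41092418 to 41092560) had 10 tags against 1.37 expected, a fold of 4.63, and was in library 2 alone with 5 tags. The one inside the gene had a fold of 9.29 and 17 tags and was in library 1 alone with 11 tags. The 2 downstream, at 2.0 and 18.5 kb, had folds of 6.01 and 3.91. Around the first of these the libraries had peaks that did not overlap, at 895 bp from the gene end in library 2 and 1965 bp in library 1. CREBBP (chromosome 16, 3725054 to 3880713), the paralog of EP300, had 2 peaks inside the gene with folds of 6.11 (22 tags) and 5.04 (14 tags). The stronger was in library 2 alone and the other in neither library. SIRT1 (chromosome 10, 67884656 to 67918390) had 1 peak 35.1 kb upstream, with 23 tags against 4.74 expected and a fold of 4.18. It was in library 1 alone and lay nearer to DNAJC12, 11.3 kb away. No KQ list had a peak in the windows of these 3 enzymes of acetylation and deacetylation. Of all genes, 16.4% had a pooled KQ peak, so an absence at 3 genes does not set them apart.

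The 2 corepressor genes held 3 of the 4 reproducible wild-type peaks, all more than 40 kb from the gene. Of all pooled wild-type peaks 31.9% were reproducible, and 37.7% of all genes had a reproducible one within 50 kb. With 2 genes and few peaks, this count does not set the corepressor genes apart. NCOR1 (chromosome 17, 16029157 to 16215534) had 4 pooled wild-type peaks, at 14.1, 35.3, 43.5 and 44.5 kb upstream and all inside the next gene, PIGL, an enzyme of GPI anchor synthesis. The farthest (16259936 to 16260115) was the reproducible one, with 9 tags in library 1, 5 in library 2 and 14 in the pool. Its summits in the 2 libraries were 2 bp apart. At 5 tags its −log10 q in library 2 was 2.65, and at a minimum of 3 in every list it was no longer reproducible. The peak at 14.1 kb had the most tags, 36 against 6.32 expected, in library 1 alone. NRIP1 (chromosome 21, 14961235 to 15065936) had 2, both reproducible, 44.3 and 43.3 kb downstream (14916718 to 14917159 and 14917817 to 14918049). They had 9 and 9 tags in libraries 1 and 2 at the first and 14 and 12 at the second, with pooled folds of 8.69 and 7.73. NRIP1 was the nearest protein-coding gene to both. KQ had 1 pooled peak there, 18.0 kb downstream (fold 4.59, 16 tags against 2.70 expected), in neither KQ library and on no wild-type peak.

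MED1 (chromosome 17, 39404285 to 39451263) had 2 wild-type and 2 KQ pooled peaks, and they lay on the same sites. These were the 2 of 21 wild-type peaks (9.52%) that overlapped a pooled KQ peak, beside 9.10% of the whole list. In the other direction, 2 of the 3 KQ peaks near the members (66.7%) overlapped a pooled wild-type peak, beside 80.4% of all pooled KQ peaks. At the CDK12 promoter, 10.1 kb upstream of MED1, the wild-type libraries had 40 tags against 2.34 expected and 25 against 1.12. The KQ libraries had 39 tags against 4.35 expected and 37 against 2.54. The 95% Poisson intervals of the tags, 28.6 to 54.5, 16.2 to 36.9, 27.7 to 53.3 and 26.1 to 51.0, all overlapped. The tags are not scaled for depth, and no test of their difference was made. The 4 summits lay within 51 bp. The nearest gene was CDK12, and with each peak given to its nearest gene alone 0 members had a reproducible KQ peak, beside 1.67% of all genes. In the pooled lists this site was the wild-type interval 39461155 to 39461530 (fold 10.8, −log10 q 40.9) and the KQ interval 39461189 to 39461607 (fold 12.6, −log10 q 50.8). By −log10 q it ranked 770 of 25164 with wild type and 6 of 2846 with KQ. Ranks in lists of such different length cannot show whether the site changed between the groups.

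At the MED1 promoter itself a peak was found in 1 library of each group. Wild-type library 1 had 21 tags against 1.75 expected (39451268 to 39451446) and KQ library 1 had 22 against 3.10 (39451221 to 39451393). Neither library 2 had a peak there, so the site was not reproducible in either group. The pooled peaks had 28 tags (fold 6.36) with wild type and 40 tags (fold 6.32) with KQ.

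**Figure D4:**
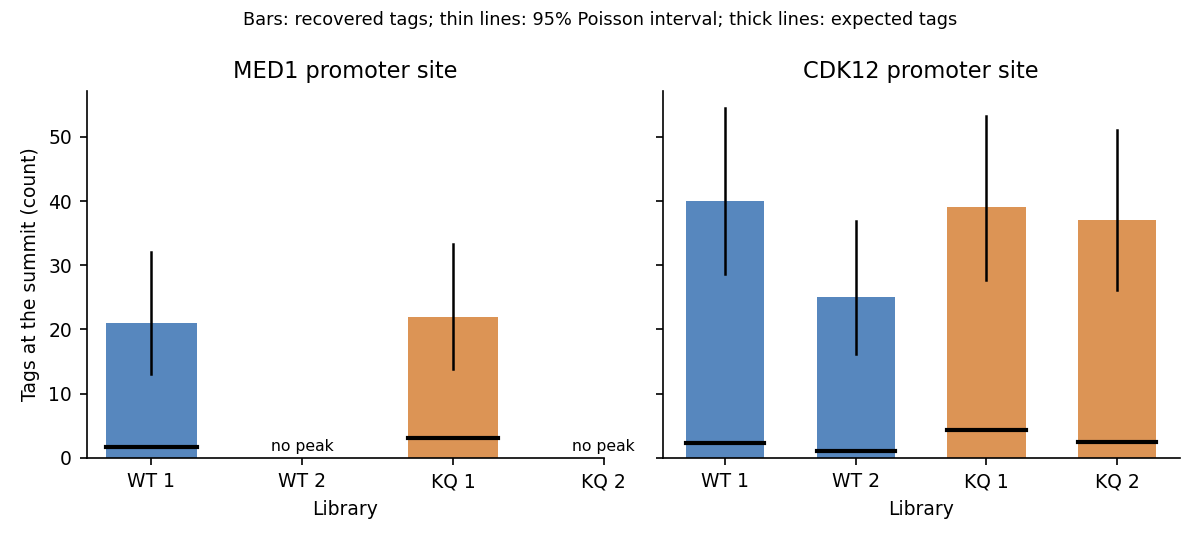
Tags at the summit in each library (bars, from 0) with 95% Poisson intervals (thin lines) and the expected tags (thick lines), at the MED1 promoter and at the CDK12 promoter; blue is wild type and orange is KQ. The CDK12 site has 25 to 40 tags in all 4 libraries, and the MED1 promoter has a peak in library 1 of each group.

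Beyond the 9 genes, 91 further coregulator genes gave 44 with a reproducible wild-type peak (48.4%, beside the 37.7% of all genes) and 4 with a reproducible KQ peak (4.4%, beside 2.68%). Their median span was 46.3 kb. By role, a reproducible wild-type peak was found for 6 of 7 genes of the NCOR and SMRT complex, 7 of 9 other corepressors and 5 of 8 partners and readers around CBP and p300. It was found for 4 of 8 p160 relatives and partners, 4 of 7 of the PGC1 and brown fat group, 8 of 20 Mediator genes and 5 of 10 deacetylases. The shares were lower for acetyltransferases (3 of 12), sirtuins (1 of 6) and acetyl-CoA and NAD supply (1 of 4). The highest folds were at the acetyltransferase KAT6B (21.0), the corepressor LCOR (19.6), the CBP-binding CITED1 (18.3), the deacetylase HDAC4 (17.6) and the deacetylase SIRT2 (17.5). The KAT6B, LCOR and HDAC4 peaks lay inside the gene, whereas that of CITED1 was nearest to RPS4X and that of SIRT2 to ECH1, a beta-oxidation enzyme. None of these 5 peaks except SIRT2's overlapped a pooled KQ peak.

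The 4 with a reproducible KQ peak were the Mediator genes MED6 (fold 8.34, 28 tags) and MED24 (5.95, 40 tags), SIRT2 (6.50, 59 tags) and the corepressor SIN3B (5.47, 42 tags). Each of these KQ peaks overlapped a pooled wild-type peak, as did 80.4% of all pooled KQ peaks, so this does not set them apart. The SIN3B and MED24 peaks lay inside the gene, the MED6 peak 16.1 kb outside it, and the SIRT2 peak 46.6 kb away beside ECH1. That SIRT2 peak (38831825 to 38832111) did not overlap the wild-type peak of fold 17.5 (38831120 to 38831365). Closest to MED1 in the number of window peaks over the 4 libraries (3, 1, 2 and 1) were MED6 (1, 1, 1 and 1) and MED14 (2, 1, 1 and 0), each with a summed difference of 3. The next place was shared by 12 genes at 4.

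**Figure D5:**
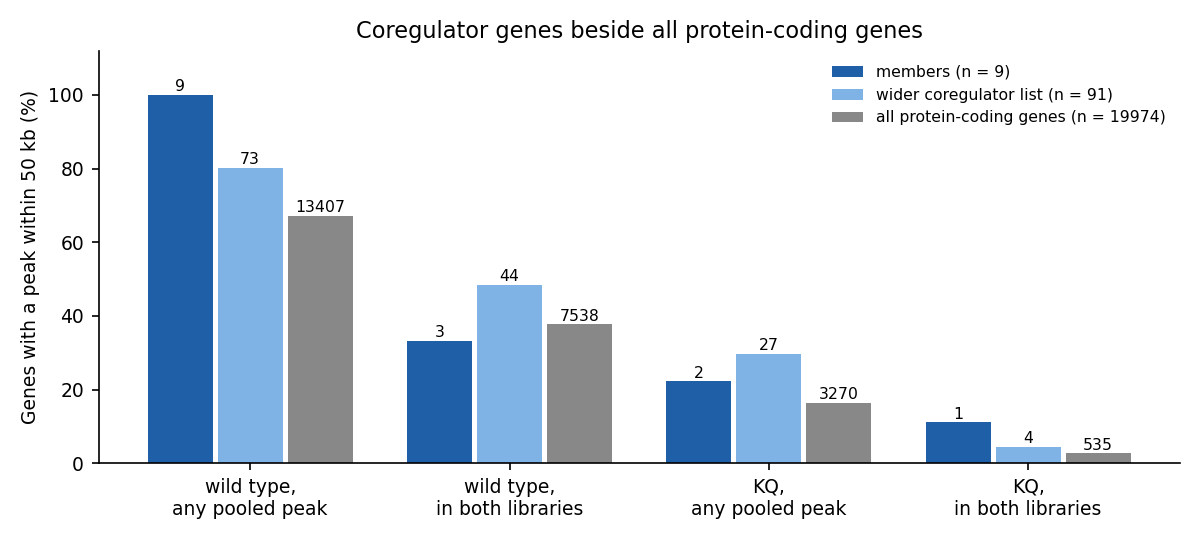
Percent of genes with a peak within 50 kb for the 9 genes, the 91 further coregulators and all protein-coding genes, by group and by whether the peak was in both libraries; numbers over the bars are gene counts. For reproducible wild-type peaks the bars stand at 33.3%, 48.4% and 37.7%.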

How the data were processed

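The submitters' processing notes name Bowtie2 (version 2), MACS2 and the build hg38. Tool settings: not given in the sources used here. Each peak of the deposited lists has a fold enrichment over background (a ratio made by the authors) and −log10 of the p-value and q-value, the lowest −log10 q being 1.30 to 1.41. The authors called each library and each group's pool.

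Only peaks on chromosomes 1 to 22 and X entered, matched by an overlap of 1 bp. Summit tags and expected tags were solved from fold, with a pseudocount of 1, and Poisson p; all peaks fitted within a relative error of 1e-04. The solution was tested on simulated data and recovered 200 of 200 peaks per list. Median summit tags per list were 8 to 25, so Poisson intervals (95%, counting error only) are wide. Tags are counts of fragments and not independent molecules.

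Gene spans and promoters came from RefSeq (GRCh38.p14). Of 92 further coregulators, 91 lay on these chromosomes. Named were all members, the 5 further genes with the highest reproducible wild-type fold, every one with a reproducible KQ peak and those most like MED1, of which 2 are given because 12 genes tied for the next place. RPS4X, ECH1, PIGL, DNAJC12 and CDK12 were named as nearest genes. Members and lists were chosen with earlier results of these data known. Comparisons between libraries used an exact permutation test. Alternatives were other windows (5 and 100 kb), a −log10 q minimum of 3, an overlap of 0.5 of both peaks, nearest gene, all pooled peaks, a shortened list and leaving out libraries. The search for receptor-binding motifs in proteins was not run. Python 3.11.15 and scipy 1.17.1 were used.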

Additional observations from a re-analysis of the deposited data

How the results depend on the processing

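Of 30 alternatives, 20 kept their value within 1.5 times (or, for the promoter share, within its interval), 10 moved further and 0 reversed; a kept count need not hold the same genes. The number of members with a reproducible wild-type peak, 3, became 0 in the 5 kb window (17.5% of all genes) and 0 with only the top 354 reproducible wild-type peaks by q, as many as KQ has (−log10 q of at least 52.1; 3.25% of all genes). It was 9 over all pooled peaks (67.1%) and 6 to 7 when 1 wild-type library was left out (48.6% and 54.8%). By nearest gene it was 2 (23.4%), with NCOR1 and MED1 lost and NCOA3 gained. The number with a reproducible KQ peak, 1, became 0 in the 5 kb window (1.09%), 0 by nearest protein-coding gene (1.67%) and 2 over all pooled peaks (16.4%). These changes follow from how each alternative is built (narrower windows, fewer or more peaks). Among reproducible peaks alone, 1 of 4 wild-type peaks overlapped a KQ peak, beside 3.91% of all reproducible wild-type peaks. For KQ, 1 of 1 overlapped a wild-type peak, beside 88.4% of all reproducible KQ peaks. The ratio of window peaks stayed between 6.67 and 13.5. With the replicate number as a block, the exact sign-flip test gave p = 0.5, its smallest value. Deviations of same-numbered libraries were not correlated (r = -0.011 over genes). Most genes had no KQ peak, so this value cannot show whether same-numbered libraries share more than a number. The element of 6 letters, TCGCGA, added after seeing the data, gave 43.2% of KQ windows. Sites with 4 to 9 tags in a library limit what these lists can show.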

Other observations

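Among the 74 further coregulator genes with a promoter window, 9 had a promoter overlapped by a pooled wild-type peak (CCNC, CLOCK, LPIN1, MED23, NAMPT, NCOA4, NCOA5, NCOA7 and TBL1XR1) and 2 by a pooled KQ peak (CCNC and NCOA4). Over all protein-coding genes with a window the shares were 6.84% and 0.778%. These names were chosen after their values were seen. The CGCG element was in 4 of the 126 windows of these genes, beside 1.15% of all windows, and the genes were CCNC, NCOA4 and HDAC6. The windows of CCNC overlap and hold the same stretch with the element, so that stretch was counted more than once. NCOA4, a ferritin carrier and receptor coactivator, had a reproducible wild-type peak on its promoter (25 tags against 3.16 expected) and a pooled KQ peak (24 against 4.80) found in neither KQ library. CCNC, the cyclin of the Mediator kinase, had 15 tags against 3.56 with wild type and 25 against 4.12 with KQ, in pooled lists alone. The 250 bases before the NCOA4 start site are shown because both groups had a peak there, with the element and its overlapping reverse complement in capitals.
NCOA4, chr10:46030624-46030873, minus strand: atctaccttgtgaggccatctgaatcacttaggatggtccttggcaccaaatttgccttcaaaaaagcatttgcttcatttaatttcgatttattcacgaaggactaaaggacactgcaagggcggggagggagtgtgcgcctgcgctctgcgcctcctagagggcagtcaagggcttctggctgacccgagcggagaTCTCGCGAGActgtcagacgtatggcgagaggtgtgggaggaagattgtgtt

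The library lists held 5 peaks near the 9 genes that overlapped no pooled peak of their group, all wild type: near NCOA2 (6 tags), EP300 (4) and inside NCOA3 (7) in library 2, and inside NCOR1 (9) and near MED1 (9) in library 1. The last lay on a promoter of FBXL20.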
